A study of Mus musculus with 10 samples.

Results

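The loci of 4 transcription factors of the naive pluripotent state, Tbx3, Prdm14, Tfcp2l1 and Zfp42, were examined in maps of open chromatin from 4 mouse cell types. Open sites were taken by position alone, as all those sharing at least 1 bp with 1 of 4 fixed intervals of mouse build mm9. The 4 loci themselves were chosen with earlier results of these data known. The intervals are chromosome 5 from 120.09 to 120.16 Mb for Tbx3, chromosome 1 from 13.083 to 13.137 Mb for Prdm14 and from 120.505 to 120.6 Mb for Tfcp2l1, and chromosome 8 from 44.365 to 44.41 Mb for Zfp42. They hold 276 of the 1816946 sites in the 4 lists, of which 168 are from embryonic stem cells (ESC), 75 from epiblast stem cells (EpiSC), 8 from neural stem cells (NSC) and 25 from embryonic fibroblasts (MEF).

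Sites were mapped by FAIRE-seq, in which crosslinked chromatin is sheared, extracted with phenol and chloroform, and the nucleosome-poor DNA of the aqueous phase is sequenced. ESC were E14 cells (ES-E14Tg2a) grown on gelatin in N2/B27 medium with 1 uM of the MEK inhibitor PD032590, 3 uM of the GSK3 inhibitor CH99021 and 1000 U/ml LIF. EpiSC were E3 cells, expanded on MEF feeders treated with mitomycin C, in MEF-conditioned medium with 5 ng/ml FGF2, and kept off feeders on fibronectin for the last 2 days. NSC, labelled as ES-derived neural progenitor cells, were grown in N2B27 with 10 ng/ml each of FGF2 and EGF. MEF came from E16.5 embryos and were grown in DMEM with 10% FBS. No label names a gene deletion or transgene, and each pluripotent group is 1 line. The labels list 10 samples in 5 groups of 2, sheared genomic DNA among them. A list of sites from 1 sample of each cell type was analysed here, so no difference between cell types has a replicate check, and none was tested. The MEF samples carry a source label that speaks of NSC chromatin, against a title and a cell type that say fibroblasts, which were followed here. The depth behind each list is unknown. In length the lists run from 387312 sites (EpiSC) through 431911 (MEF) and 441855 (ESC) to 555868 (NSC). The cell types were not checked against marker genes, since gene positions on mm9 were not used here; for the same reason no site is assigned to a promoter, exon or intron.

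Naive pluripotency, the state of the embryo's epiblast before implantation, is held in culture by LIF together with inhibitors of MEK and GSK3, and it is lost when cells move to the primed state that EpiSC represent. Tbx3 is a T-box factor that supports self-renewal downstream of LIF and also acts in the developing limb, heart and mammary gland. Prdm14 is a PR-domain zinc finger protein that holds back FGF signalling and DNA methylation in naive cells and takes part in the specification of germ cells. Tfcp2l1 is a factor of the CP2 family and a target of LIF and STAT3. Zfp42, also called Rex1, is a zinc finger protein related to YY1 whose gene is widely used as a reporter of the naive state.

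RefSeq promoters, from 250 bases before to 50 after the gene's start, were matched for 2 of the 4 genes, Zfp42 and Tfcp2l1, and are shown as the regulatory sequence at which each gene starts. Their build is GRCm38.p6, not the build of the sites, and they were not placed on them. Capitals mark matches, on either strand, to 6 searched motifs: the POU octamer ATTTGCAT, the ESRRB site TCAAGGTCA, the STAT site TTCCNGGAA, the T-box site AGGTGTGA, the GC box GGGCGG and the TATA box TATAAA.
Zfp42, chr8:43306960-43307259, minus strand: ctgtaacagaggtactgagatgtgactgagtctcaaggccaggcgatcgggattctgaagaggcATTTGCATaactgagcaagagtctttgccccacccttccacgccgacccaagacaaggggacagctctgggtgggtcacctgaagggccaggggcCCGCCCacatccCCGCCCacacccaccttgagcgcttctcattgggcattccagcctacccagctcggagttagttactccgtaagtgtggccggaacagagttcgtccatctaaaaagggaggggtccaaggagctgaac
Tfcp2l1, chr1:118627695-118627994, plus strand: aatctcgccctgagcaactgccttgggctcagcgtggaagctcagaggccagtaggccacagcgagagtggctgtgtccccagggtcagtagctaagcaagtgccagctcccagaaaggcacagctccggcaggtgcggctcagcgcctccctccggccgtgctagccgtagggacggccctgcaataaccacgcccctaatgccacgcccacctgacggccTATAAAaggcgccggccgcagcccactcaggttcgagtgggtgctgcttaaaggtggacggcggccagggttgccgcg
The Zfp42 promoter holds the octamer once, at bases 65 to 72 counted from the 5′ end of the printed sequence; 1.74% of 32851 RefSeq promoters of this length hold it. The same promoter has 2 GC boxes on the opposite strand, at bases 160 to 165 and 172 to 177, a motif found in 35.7% of promoters. The Tfcp2l1 promoter holds only the TATA box of these motifs, at bases 223 to 228, as do 13.6% of promoters. GC content was 57.7% for Zfp42 and 65.3% for Tfcp2l1, against a median of 52.7% over all promoters.

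Each of the 4 loci was covered most densely in ESC. ESC sites took up 46.1% of the Tbx3 interval, 42.3% at Prdm14, 37.5% at Tfcp2l1 and 32.2% at Zfp42. EpiSC sites took up 34.4%, 13.3%, 10.6% and 1.16% in the same order. The EpiSC values thus spanned a wide range, from near the ESC level at Tbx3 to almost nothing at Zfp42. NSC sites took up 0%, 1.56%, 1.62% and 0.469%, and MEF sites 8.64%, 0.98%, 1.64% and 1.74%. Over all autosomes the ESC list covered 9.36%, the EpiSC list 7.19%, the NSC list 10.3% and the MEF list 6.85%. The NSC list, the longest of the 4, was therefore below its own autosomal mean at every locus, and MEF exceeded its mean at Tbx3 alone.

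**Figure D1:**
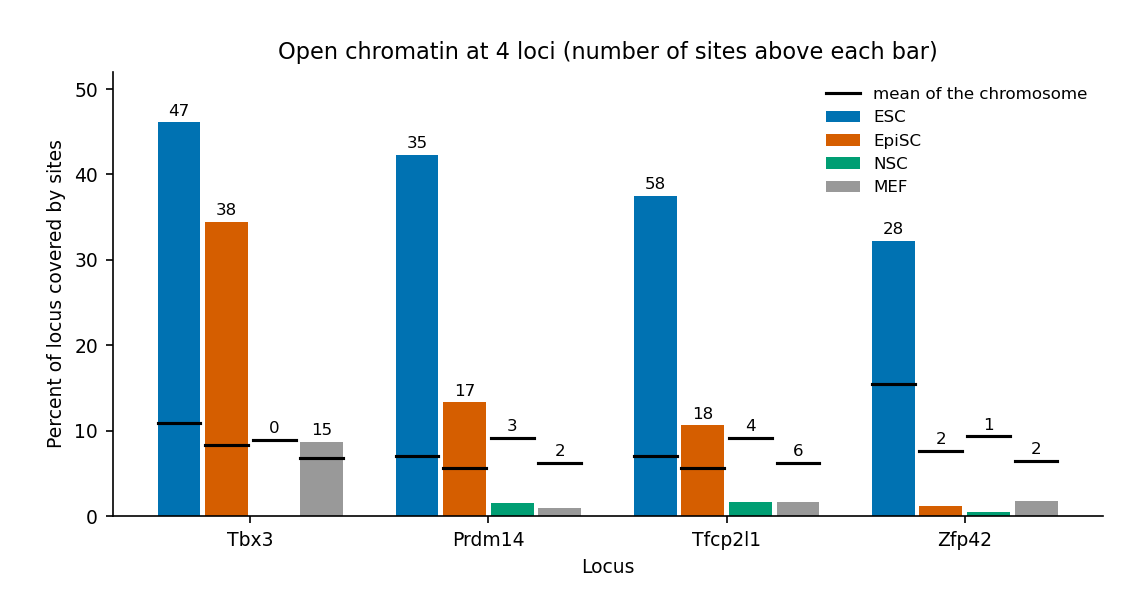
Percent of each locus covered by open sites (y axis) for the 4 loci (x axis), with 1 bar per list, the number of sites above it and a black line at the mean coverage of the locus's chromosome in the same list. ESC bars run from 32.2% to 46.1%, and EpiSC bars fall off from 34.4% at Tbx3 to 1.16% at Zfp42; each bar is a single list, so there is no error bar.

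ESC stood well above the level of the chromosome at each locus, by 4.24 times at Tbx3, 6.07 times at Prdm14, 5.38 times at Tfcp2l1 and 2.08 times at Zfp42. Chromosome 8 itself was dense in ESC, with 1.43 times the autosomal density of sites, and against all autosomes the Zfp42 ratio was 3.44. Autosomes were also tiled with windows of the same length as each locus. As many ESC sites as at Tbx3, or more, were found in 0.838% of 34483 windows. The corresponding shares were 1.8% of 44701 windows for Prdm14, 1.68% of 25406 for Tfcp2l1 and 2.99% of 53643 for Zfp42. Within the same chromosome they were 1.08%, 1.06%, 0.783% and 7.31%. Scaled to the bases each list covers on autosomes, the ESC-to-EpiSC ratio of coverage was 1.03 at Tbx3, 2.44 at Prdm14, 2.72 at Tfcp2l1 and 21.2 at Zfp42. Scaled to the locus's own chromosome instead, it was 1.02, 2.56, 2.86 and 13.7. With either scaling Tbx3 was about equally open in both pluripotent cell types.

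**Figure D2:**
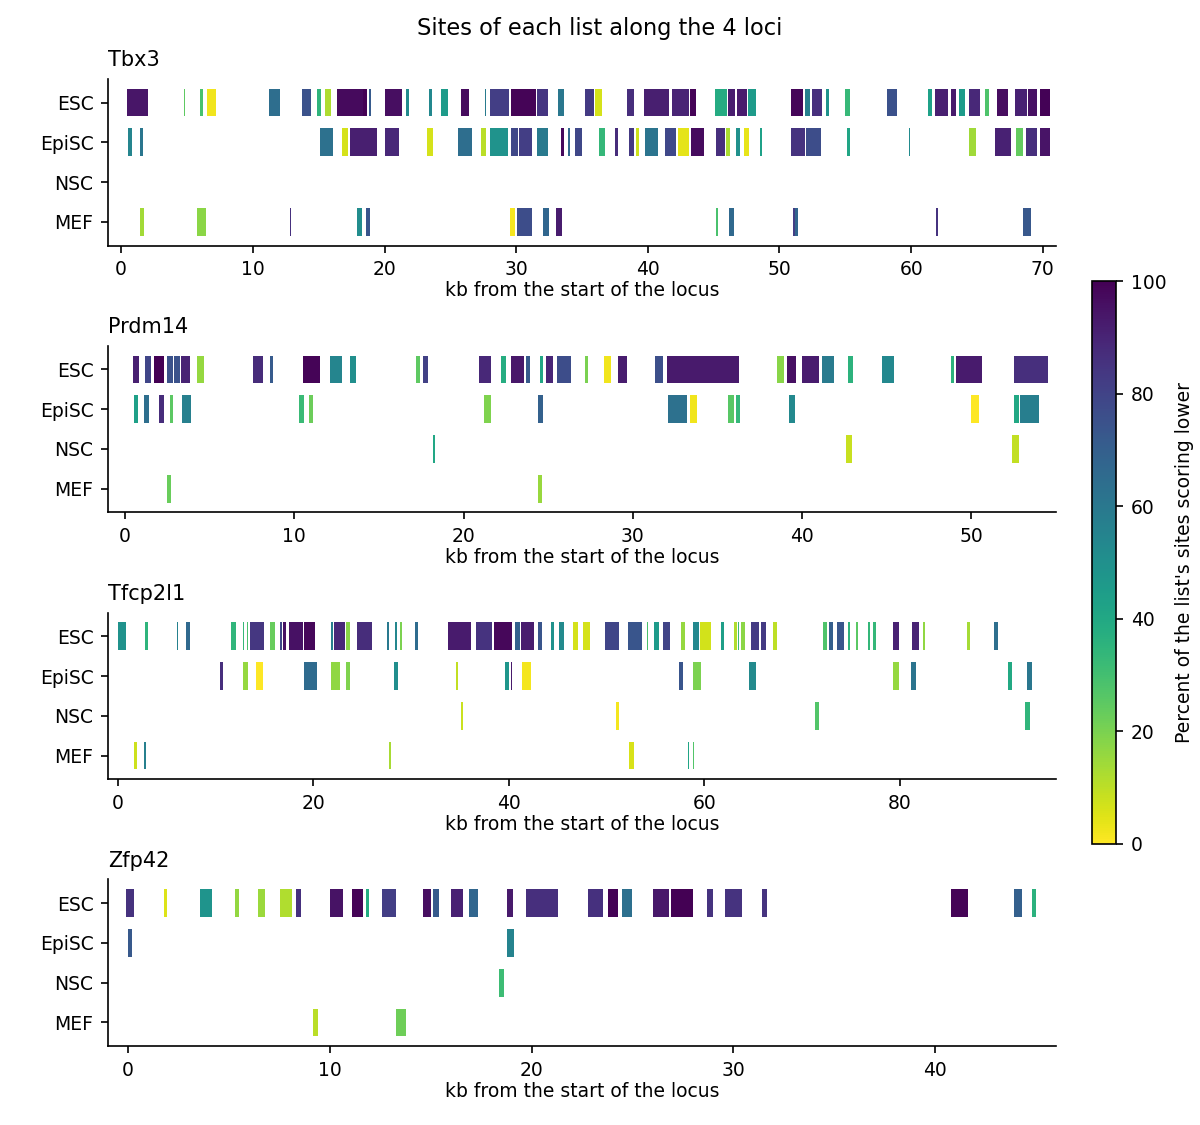
Position of every site along the 4 loci, in kb from the start of each interval (x axis), in 1 row per list; the colour gives the percent of the same list's sites that score lower. ESC rows hold the most sites, the EpiSC row thins out from Tbx3 to Zfp42, where 2 sites are left, and the NSC row at Tbx3 is empty.

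At Tbx3, open chromatin was shared by the pluripotent cells and in part by fibroblasts. The interval held 47 ESC sites, 38 EpiSC sites, 15 MEF sites and no NSC site. ESC sites had a median width of 622 bp, against 373 bp in the whole list, and EpiSC sites 520 bp, against 338 bp. Of the 47 ESC sites, 32 (68.1%, exact 95% interval 52.9 to 80.9) overlapped an EpiSC site, where 40.1% of all ESC sites do so. EpiSC sites cover 34.4% of this interval, against 7.19% of the autosomes. How much of the overlap that density alone gives was not tested. The EpiSC count was high for that list, with 0.557% of windows holding as many or more. For MEF it was ordinary, with 34.7%. An absence of NSC sites from a window of this length was seen in 4.03% of windows. The 289 windows with as many ESC sites as Tbx3 had a median of 21 NSC sites, and 5 of them had none. Of these 5 windows, 2 lay on other chromosomes and the rest on chromosome 5 itself. The flank of the same length at lower coordinates held 52 ESC sites and likewise 0 NSC sites.

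The authors' score, which has no stated unit and is read within 1 list only, singled out the following sites at Tbx3. The highest ESC score, 19.9, lay at chr5:120108448-120108744, and 281 sites of the ESC list scored higher. It was also open in EpiSC and MEF. Next came chr5:120159806-120160565, at the edge of the interval (15.0, also in EpiSC), and chr5:120133202-120133626 (14.4, also in EpiSC). The widest ESC site, chr5:120106353-120108304, and the widest EpiSC site, chr5:120107404-120109464, overlap each other, and the EpiSC site also contains the top ESC site. The highest EpiSC scores were 10.2 at chr5:120123434-120123652, 9.39 at chr5:120133254-120134196 and 8.14 at chr5:120159781-120160517, all 3 also open in ESC. In MEF they were 7.5 at chr5:120123042-120123524, 6.29 at chr5:120102820-120102929 and 6.17 at chr5:120151908-120152071. The first of these MEF sites was open in both pluripotent types, and the second was the single MEF site of the locus found in no other list. The widest MEF site was chr5:120120102-120121208. The longest run of ESC sites without an EpiSC site, with gaps of at most 1 kb, spanned 2706 bp from 120151349 to 120154054 and held 4 ESC sites and 1 MEF site.

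At Prdm14, EpiSC had fewer sites than ESC, and each of them overlapped an ESC site. The interval held 35 ESC sites, 17 EpiSC sites, 3 NSC sites and 2 MEF sites. All 17 EpiSC sites overlapped an ESC site (100%, exact 95% interval 80.5 to 100), where 45% of all EpiSC sites do so. Of the 35 ESC sites, 12 (34.3%, 19.1 to 52.2) overlapped an EpiSC site, near the 40.1% of the whole list. ESC coverage exceeded the EpiSC value in each of the 11 bins of up to 5 kb. ESC sites cover a large part of the interval, and how much of the overlap that density alone gives was not tested. The EpiSC coverage depended on the edges of the interval: without 5 kb at each end it was 8.64%. As many EpiSC sites, or more, were found in 15.5% of all windows of this length. Among the 805 windows with as many ESC sites, 33.7% had as few EpiSC sites, and the median was 20 EpiSC sites. An EpiSC count this low was thus common among windows dense in ESC sites.

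The top ESC site at Prdm14, chr1:13084686-13085299, scored 17.1 and contained most of the top EpiSC site, chr1:13085007-13085307, which scored 6.12. The other leading ESC sites were chr1:13093524-13094555 (13.7) and chr1:13122128-13122653 (10.9), both open in EpiSC too. The widest site of all 4 loci was chr1:13114958-13119254, 4297 bp in ESC, and 401 sites of the ESC list were wider. EpiSC had 4 separate sites within it or at its edge, the widest being chr1:13115053-13116143 with 1091 bp. After the top site, the EpiSC scores were led by chr1:13107378-13107699 (4.07) and chr1:13084138-13084431 (3.69). The first of these was also open in MEF, at chr1:13107433-13107692 (1.82), and the other MEF site was chr1:13085478-13085746 (2.04). The NSC sites were chr1:13101165-13101274 (3.30), chr1:13135440-13135835 (1.69) and chr1:13125583-13125916 (1.67). All 5 somatic sites scored below the median of their list, with 8.44% to 40.5% of sites scoring lower. The longest ESC run without an EpiSC site spanned 4804 bp, from 13107887 to 13112690, and held 5 ESC sites and none of the somatic lists.

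At Tfcp2l1, the longest interval, ESC had 58 sites, against 18 in EpiSC, 4 in NSC and 6 in MEF. Per 100 kb this was 61.1 ESC sites, against 67.1 at Tbx3, 64.8 at Prdm14 and 62.2 at Zfp42. Of the ESC sites, 17 (29.3%, exact 95% interval 18.1 to 42.7) overlapped an EpiSC site, against 40.1% of the whole list, which lies within that interval. Of the 18 EpiSC sites, 15 (83.3%, 58.6 to 96.4) overlapped an ESC site, against 45% of the whole list. ESC sites cover 37.5% of this interval, and how much of the overlap their density alone gives was not tested. The 5-kb bin with the most ESC coverage, 35 to 40 kb from the start of the interval, was 83.4% covered in ESC and 7.82% in EpiSC. The EpiSC count was common for that list, being reached in 39.5% of windows of this length. Among the 427 windows with as many ESC sites, however, 5.39% had as few EpiSC sites, and their median was 35 EpiSC sites. ESC sites here were weaker than at the other loci, with a median score higher than 53.5% of the list.

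The leading ESC sites at Tfcp2l1 were chr1:120543504-120545355 and chr1:120524051-120525178, both with a score of 12.9 and both open in EpiSC, followed by chr1:120521905-120522254 (10.7), open in ESC alone. The widest was chr1:120538804-120541127, 2324 bp, which also overlapped a site each of EpiSC and NSC. In EpiSC the highest scores were 7.56 at chr1:120545190-120545283, a narrow site of 94 bp inside the top ESC site, 5.94 at chr1:120515510-120515805, in no other list, and 4.42 at chr1:120562385-120562777. The widest EpiSC site, chr1:120524149-120525431, overlapped the second ESC site. The top NSC site, chr1:120597780-120598364 (2.90), was shared with EpiSC and lay beyond the last ESC site. Next in NSC were chr1:120576263-120576708 (2.44) and chr1:120540069-120540316 (1.65). MEF were led by chr1:120507647-120507931 (3.66), chr1:120563284-120563444 (2.86) and chr1:120563879-120563971 (2.20), and their widest site was chr1:120557260-120557755. The longest ESC run without an EpiSC site spanned 6671 bp, from 120554888 to 120561558. It held 5 ESC sites, which covered 63% of it, with 1 NSC site and 1 MEF site.

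At Zfp42, open chromatin was close to restricted to ESC in these lists. The interval held 28 ESC sites, 2 EpiSC sites, 1 NSC site and 2 MEF sites. Of the ESC sites, 26 (92.9%, exact 95% interval 76.5 to 99.1) overlapped no EpiSC site, where 59.9% of all ESC sites have none, and 25 were in no other list, where 40% of the whole ESC list are. Chromosome 8 is dense in ESC sites, and these shares were not set against that chromosome alone. Both EpiSC sites overlapped an ESC site. They were chr8:44364991-44365177 (score 4.34), which straddles the edge of the interval, and chr8:44383782-44384127 (3.18), which matched the ESC site chr8:44383784-44384049. The NSC site, chr8:44383374-44383584 (2.72), ended 200 bp before that ESC site. The MEF sites were chr8:44378253-44378745 (2.02), which overlapped an ESC site, and chr8:44374143-44374434 (1.69), which did not.

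The Zfp42 locus also held the highest ESC score of the 4 loci. Site chr8:44391919-44393034, open in ESC alone, scored 22.8, and 94 of the 441855 ESC sites scored higher. The next were chr8:44388780-44389265 (14.6) and chr8:44405833-44406686 (14.1), also in ESC alone, and the widest was chr8:44384736-44386357 with 1622 bp. The longest run of ESC sites, 7600 bp from 44387799 to 44395398, contained the top 2 of these sites and no site of any other list; ESC covered 61.9% of it. Autosomal windows of this length with as many ESC sites numbered 1606, with a median of 16 EpiSC sites. In 2 of them (0.125%) the EpiSC count was as low as at Zfp42, and both lay on other chromosomes. A low EpiSC count as such was ordinary, since 27.9% of all windows held 2 or fewer.

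Scores of ESC sites were then set beside their overlap with EpiSC. At Tbx3 the 32 ESC sites with an EpiSC site had a median score higher than 89.3% of the ESC list, and the 15 without one 49.1%. At Prdm14 these values were 91% for 12 sites and 58.8% for 23, and at Tfcp2l1 82.6% for 17 and 49.3% for 41. The same order held over the whole list, with 65.4% and 41.4%. At Zfp42 the 26 ESC sites without an EpiSC site reached 85.3%, and the 2 with one 89.4%. ESC sites absent from EpiSC thus scored near or somewhat above the middle of the list at 3 loci and high at Zfp42. ESC sites with an EpiSC site were also wider, with medians of 665 and 431 bp over the 4 loci. At Zfp42 they were narrower (318 and 472 bp). For EpiSC sites pooled over the 4 loci the order of scores was reversed. The values were 52.8% for 66 sites overlapping an ESC site and 60.5% for the 9 others. By locus the reversal was seen at Tfcp2l1 alone, with 19.9% for 15 sites and 60.5% for 3. At Tbx3 the values were 62.3% for 32 sites and 59.3% for 6. At Prdm14 and Zfp42 every EpiSC site overlapped an ESC site. Over the whole EpiSC list these values were 53.1% and 47.8%. Sites in the top 10% of ESC scores numbered 17 of 47 at Tbx3, 10 of 35 at Prdm14, 8 of 58 at Tfcp2l1 and 9 of 28 at Zfp42. In EpiSC such sites numbered 5 of 38, 0 of 17, 1 of 18 and 0 of 2. Neighbouring sites are not independent, and the difference between loci was not tested.

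**Figure D3:**
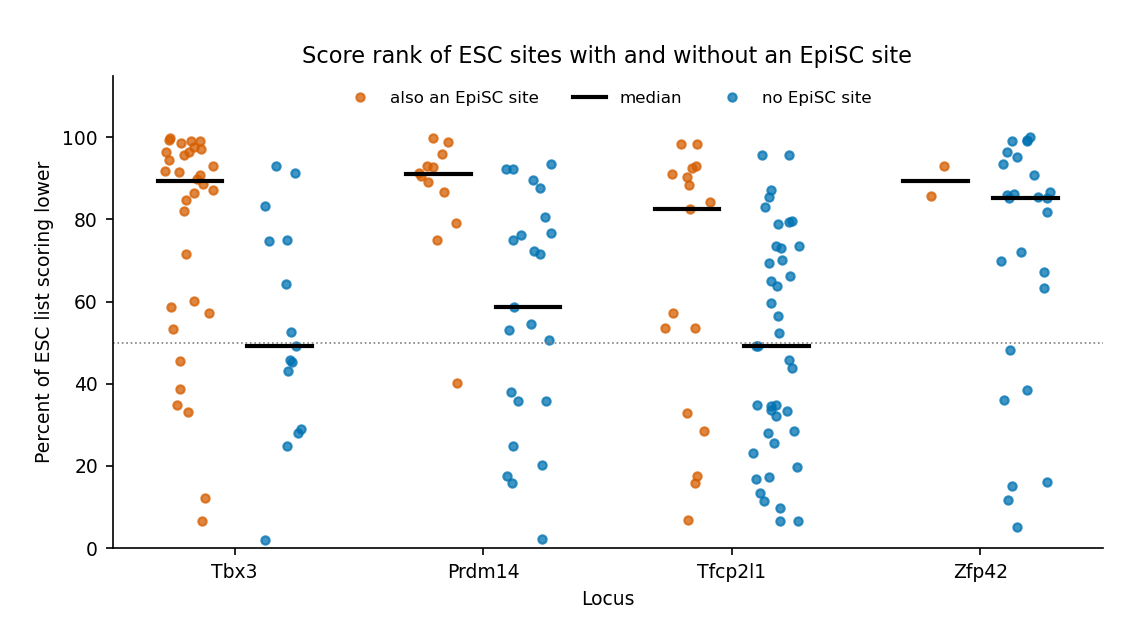
Score rank of each ESC site, as the percent of the ESC list that scores lower (y axis), by locus (x axis), for sites with and without an overlapping EpiSC site; black bars are medians and the dotted line is the middle of the list. Sites without an EpiSC site have medians of 49.1%, 58.8% and 49.3% at Tbx3, Prdm14 and Tfcp2l1 and 85.3% at Zfp42.

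Somatic sites in these loci were few, and most of the MEF sites overlapped ESC sites. Over the 4 loci, 20 of 25 MEF sites (80%, exact 95% interval 59.3 to 93.2) overlapped an ESC site, where 25% of the MEF list do. Of the 8 NSC sites, 4 did (50%, 15.7 to 84.3), and the 25.3% of the NSC list lies within that interval. Tbx3 held 15 of the 25 MEF sites, and 14 of them overlapped an ESC site. ESC sites cover 46.1% of the Tbx3 interval, against 9.36% of the autosomes. How much of the overlap that density alone gives was not tested. EpiSC had been expanded on fibroblast feeders. At Tbx3, 10 of the 38 EpiSC sites (26.3%) overlapped a MEF site, where 29.1% of the EpiSC list do, and at Prdm14 2 of 17. Over the 4 loci 13 of 75 EpiSC sites overlapped a MEF site. The part of feeder chromatin in the EpiSC sites was not tested.

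Overlapping sites of any list were joined into regions to see which combinations occurred. The 4 loci held 174 regions, of which 98 (56.3%, exact 95% interval 48.6 to 63.8) were open in ESC alone, a class that makes up 15.6% of all merged regions. Regions of ESC and EpiSC alone numbered 39 (22.4%), against 5.41% of all regions. None was open in all 4 lists, a class that makes up 4.05% of all regions. NSC-only and MEF-only regions made up 1.72% and 2.87% here, against 23.4% and 16.6% of all regions. Counted by site, 105 of 168 ESC sites (62.5%) overlapped no EpiSC site, near the 59.9% of the whole list. At Tbx3, 13 of the 47 ESC sites were in no other list, where 40% of the whole ESC list are. How much of these shares the density of ESC sites alone gives was not tested. ESC-only regions were 13 of 46 at Tbx3, 22 of 36 at Prdm14, 38 of 62 at Tfcp2l1 and 25 of 30 at Zfp42. The most common class at Tbx3 was that of ESC with EpiSC, with 16 regions, and 8 further regions there were open in ESC, EpiSC and MEF. EpiSC-only regions numbered 6 at Tbx3 and 2 at Tfcp2l1 and were not seen at the other 2 loci. Regions of ESC alone or of ESC with EpiSC made up the larger part at each of the 4 loci, in different proportions.

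The openness of ESC did not stop at the intervals. In flanks of the same length, ESC coverage at Tbx3 was 54.5% on the side of lower coordinates, above the 46.1% of the interval, and 25.9% on the other. EpiSC coverage in those flanks was 13.7% and 15.3%, below the 34.4% of the interval. On the side of lower coordinates the pluripotent lists thus differed more than inside the interval. At Prdm14 the flanks were 41.2% and 20% covered in ESC and 16.9% and 10.2% in EpiSC. Tfcp2l1 stood out more from its surroundings, with 13.1% and 19.2% in the ESC flanks against 37.5% inside. At Zfp42 the ESC flanks were 16.3% and 25% covered, and the EpiSC flanks 2.41% and 1.67%, against 1.16% in the interval. Which genes lie in the flanks was not determined, since gene positions on mm9 were not used. In the GRCm38.p6 gene table the protein-coding neighbours are Med13l and Tbx5 for Tbx3, and Slco5a1 and Ncoa2 for Prdm14. They are Clasp1 and Gli2 for Tfcp2l1, and Triml2 and Adam26b for Zfp42. None of these neighbours was placed relative to the intervals or flanks.

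**Figure D4:**
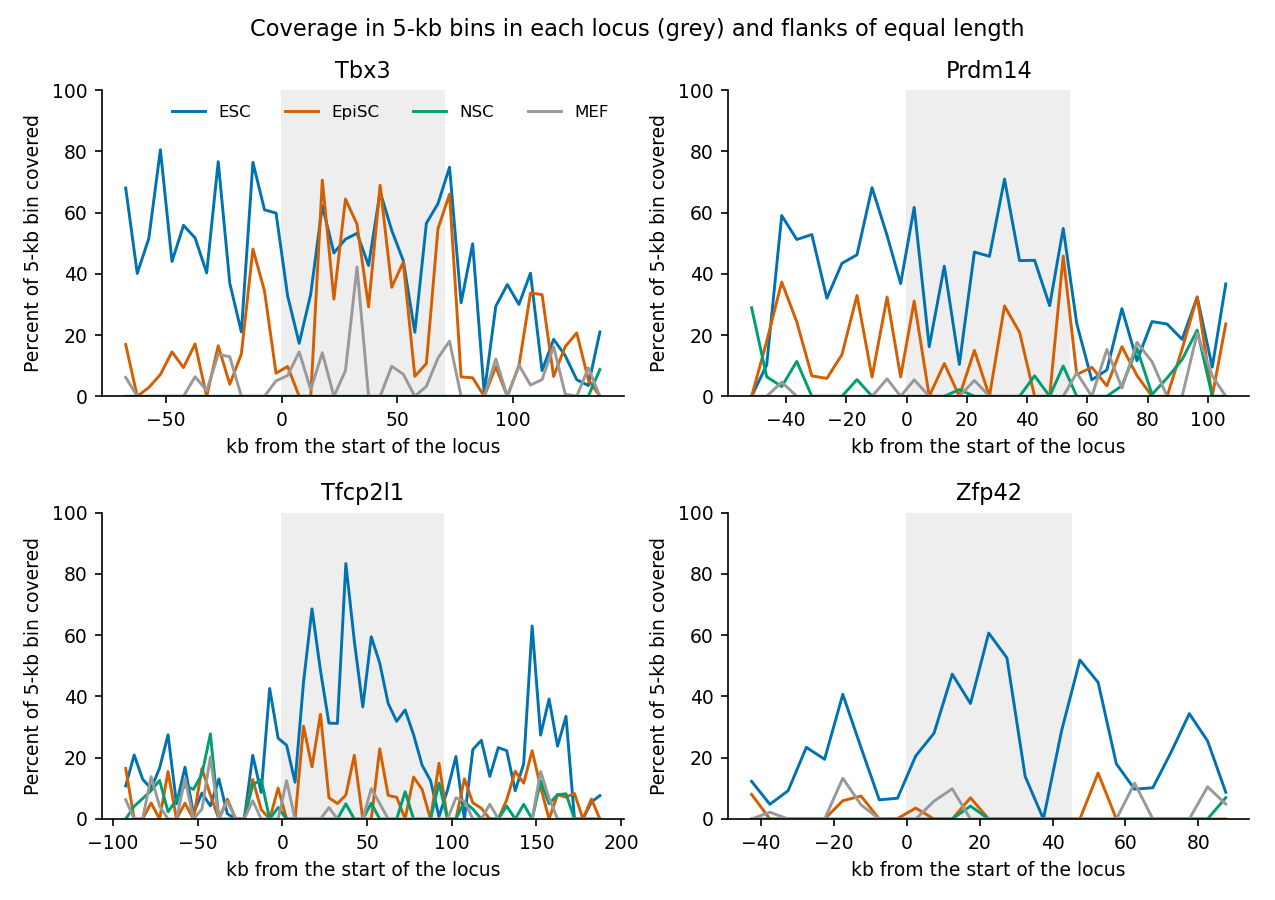
Percent of each 5-kb bin covered by sites (y axis) along the 4 loci (grey) and flanks of equal length, in kb from the start of the interval (x axis), with 1 line per list. The ESC and EpiSC lines run close together in the middle of Tbx3 and less so towards its ends, separate at Prdm14 and Tfcp2l1, where the ESC line peaks at 70.9% and 83.4%, and at Zfp42 and its flanks the ESC line reaches 60.7% and the EpiSC line at most 15%.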

How the data were processed

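FAIRE-seq sites of ESC, EpiSC, NSC and MEF were used, with 1 list per cell type. The lists were made by the authors; their build is mm9 and CASAVA 1.8 is named, per the submitters' processing notes. Each list gives start, end, a score computed by the authors and a display value, which equals 100 times the score with a cap of 1000, to within 1. Not given in the sources used here are the score's unit, the caller's settings, the aligner, the role of the genomic control and any pooling of replicates. Read depth is unknown and a longer list may be a deeper one.

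Starts were taken as 0-based, and coordinates are printed 1-based. Coverage is the share of bases inside a site, clipped to the interval. Autosomal windows of the length of each locus were tiled from the first to the last site of any list; they describe the lists and are not replicates. The 95% intervals of shares are exact (Clopper-Pearson) and reflect counting error alone. Overlap code was tested on simulated lists and gave the same 176983 ESC sites in EpiSC as bedtools 2.31.1. Tools were Python 3.11.15 with pandas 2.3.3, numpy 2.4.6, matplotlib 3.10.9 and scipy 1.17.1. Sites named are, per locus, the 3 highest-scoring and the widest of each list, regions open in all lists and the longest run of ESC sites with no EpiSC site in it; others were named after their values were seen. The members and lists were chosen with earlier results of these data known, and the motifs after the promoters had been read. Planned values for other naive and primed genes were not run, as no mm9 annotation was used here. The alternatives were lists of equal length, the top 50% of scores, midpoints, merging of close sites, other interval limits and other overlap rules.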

Additional observations from a re-analysis of the deposited data

How the results depend on the processing

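No paired analysis was possible because a single list stood for each cell type, and so no replicate could be left out. All alternatives were planned. ESC had the most sites in all 24 combinations of locus and setting and the highest coverage in all 20. EpiSC came second in 19 and 17 of these; each exception was at Zfp42, where the 3 other lists hold 1 or 2 sites each. Of 176 alternative values, 142 stayed within 1.5 times, or within the interval for shares, and 34 moved; apart from the construction of each alternative, the cause was not tested. With the top 50% of scores the number of EpiSC sites was 24 at Tbx3, 7 at Prdm14 and 8 at Tfcp2l1, of ESC sites at Tfcp2l1 31, of MEF sites 1 at Tfcp2l1 and 0 at Prdm14 and Zfp42, and of NSC sites 0 at Prdm14, Tfcp2l1 and Zfp42. Coverage was then 7.34% at Prdm14 and 4.35% at Tfcp2l1 in EpiSC, 0.30% at Tfcp2l1 in MEF, and 0% for the other somatic values just named. The share of Tfcp2l1 ESC sites in EpiSC was 16.1%. Lists of equal length left 1 NSC site each at Prdm14 (0.204% covered) and Tfcp2l1 (0.616%), and 0.764% covered in MEF at Tfcp2l1. Intervals narrowed by 5 kb at each end held 9 EpiSC sites (8.64%), 1 MEF site (0.591%) and 1.01% in NSC at Prdm14, and 1 EpiSC site at Zfp42. Widened by 10 kb, they gave 1.62% for MEF at Prdm14 and 1.97% for EpiSC at Zfp42. Counting sites within 500 bp as overlap gave 94.7% for Tbx3 EpiSC sites in ESC and 54.3% for Prdm14 ESC sites in EpiSC. Depth is unknown, so low numbers of sites may reflect sites below detection.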
